A study of Homo sapiens with 6 samples.

Results

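Amino acids cross the plasma membrane through carriers of several solute carrier (SLC) families, and 10 genes for such carriers are described here in a pair of human cell lines. The study compared stable HEK293 Tet-On cells, an established embryonic kidney line in which doxycycline switches an inserted gene on, carrying either a control vector or a vector for myocilin, a secreted protein of the eye's drainage tissue. Each line was measured on 3 Affymetrix HG-U133 Plus 2.0 arrays of total RNA. The treatment text is worded alike for both lines and names 0.2 or 1 µg/ml doxycycline for 48 h, without saying which dose lies behind an array, and a note of doxycycline treatment is attached to the myocilin samples alone. Both lines grew in Dulbecco modified Eagle medium with Tet-approved fetal bovine serum, hygromycin B and G418. Whether a line is 1 clone, and whether arrays of a line are separate cultures, is not stated, so every spread below is that between arrays and may be technical. A difference between the lines cannot be told apart from a difference between these particular isolates.

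The 10 genes were selected by name, with earlier results of this same comparison known, in which SLC7A3 and SLC7A11 were among the largest falls. They are 10 of the 18338 genes that the platform annotation ties to probe sets of a single gene, and the table of 41751 probe sets holds 26 probe sets for them. None of these 26 is shared with another gene in the annotation. Because the comparison of the lines was in view when the genes were chosen, their differences are given as values with errors, and counts of them past a threshold are given only beside the share of all probe sets or genes. Values are centred by the authors on a scale read as log2, so 0 is a reference level and not an absence of signal. Levels of different genes cannot be compared, a value near background cannot be recognised, and the kidney or neuronal markers of HEK293 cannot be checked. The table sets each array's median to 0, the standard deviation over all probe sets was 0.169 to 0.197 per array, and MYOC, the induced gene, was -7.77 ± 0.92 in control and 0.22 ± 0.02 in myocilin (SD, n = 3 each).

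The carriers fall into 4 classes by what they move. SLC7A1, SLC7A2 and SLC7A3 carry the cationic amino acids arginine, lysine and ornithine without sodium. SLC7A11 exchanges external cystine for internal glutamate, and the cysteine made from cystine feeds glutathione, the main thiol antioxidant. SLC7A5 exchanges large neutral amino acids such as leucine for glutamine. Both SLC7A5 and SLC7A11 are light chains that reach the membrane bound by a disulfide bridge to the glycoprotein encoded by SLC3A2. SLC1A4 and SLC1A5 are sodium-dependent exchangers of small neutral amino acids such as alanine, serine and, for SLC1A5, glutamine. SLC38A1 and SLC38A2 take up glutamine and alanine together with sodium, and SLC38A2 is a classical gene of the response to amino acid shortage. In that response the transcription factor ATF4, paired with C/EBP proteins, binds a composite DNA element near many genes of amino acid supply.

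Promoter windows in RefSeq (GRCh38.p14) were found for 7 of the 10 genes, 13 windows in all since some genes have several starts, each covering 250 bases before a transcript start and 50 from it on. No window was matched for SLC7A2, SLC7A3 and SLC7A11. The core TGATGNAA of the C/EBP-ATF composite element, searched on both strands, matched 5 of the 13 windows, in 5 genes, while it matched 3.62% of all 35116 windows. Within the 250 bases before the start alone it matched 1 of the 13 windows and 3.14% of all windows. The stretches that hold it are printed because this element is the sequence by which the shortage response is known to act on carrier genes. Each is written 5′ to 3′ on the gene's strand with the core in capitals. Positions count the first transcribed base as 1 and the base before it as -1.
SLC1A4: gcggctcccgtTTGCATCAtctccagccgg
SLC3A2: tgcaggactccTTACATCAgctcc
SLC38A1: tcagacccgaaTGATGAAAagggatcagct
SLC7A1: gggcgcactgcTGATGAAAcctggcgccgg
SLC1A5: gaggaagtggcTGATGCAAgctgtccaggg

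The SLC1A4 stretch lies on the plus strand at chr2:64989381-64989410, with the core, read on the opposite strand, at -7 to 1 of the second of its 2 listed starts. The SLC3A2 stretch, plus strand, is at chr11:62881725-62881748 and ends with the window. Its core is at 38 to 45 of an internal start, on the opposite strand. The SLC38A1 stretch, minus strand, is at chr12:46266502-46266531 with the core at -4 to 4, also of an internal start. The SLC7A1 stretch, minus strand, is at chr13:29595663-29595692 with the core at 8 to 15, inside the transcribed part. The SLC1A5 stretch, minus strand, is at chr19:46784893-46784922 with the core at -97 to -90 of an internal start. SLC7A5 and SLC38A2 had no match in their windows. The core TGACNNNGC of the antioxidant response element, through which NRF2 acts, matched 4 of the 13 windows, in SLC3A2, SLC7A1, SLC7A5 and SLC1A5, against 13.3% of all windows. The E-box CACGTG, a site of MYC and related factors, matched 2 of the 13 windows, in SLC7A5 and SLC1A5, against 7.26% of all windows. These are matches of letters and nothing in the arrays shows binding.

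Most of the 10 carrier genes read lower on the myocilin arrays, and the size differed widely from gene to gene, also within the cationic class. The gene values, each the mean of the gene's probe sets, were lower in the myocilin line for 9 of 10 genes, with log2 differences (myocilin minus control) from -1.84 for SLC7A3 to 0.09 for SLC7A2 and a median of -0.35. The median over all genes was 0.02. For 8 genes all myocilin arrays lay below all control arrays, which held for 2938 of all 18338 genes. For SLC7A2 and SLC3A2 the lines overlapped. Of the 26 probe sets 23 had a negative difference, 15 were past an adjusted p of 0.05 as lower in limma's fit over all probe sets and 0 as higher (also 0 at an unadjusted p under 0.05), where 5.56% of all probe sets were lower and 5.46% higher. On 19 of the 26 the myocilin arrays lay entirely below, which held for 14.8% of all probe sets. At the level of genes 7 of 10 were past the threshold as lower, and 7.35% of all genes were. With 1 array left out 6 to 8 of the 10 were, and 780 to 1095 of all 18338 genes. With a separate variance for each feature, 1 probe set and 1 gene were past it as lower, in both cases SLC7A3, and 0 as higher. The comparison chose the genes, so nothing is read from these counts.

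**Figure D1:**
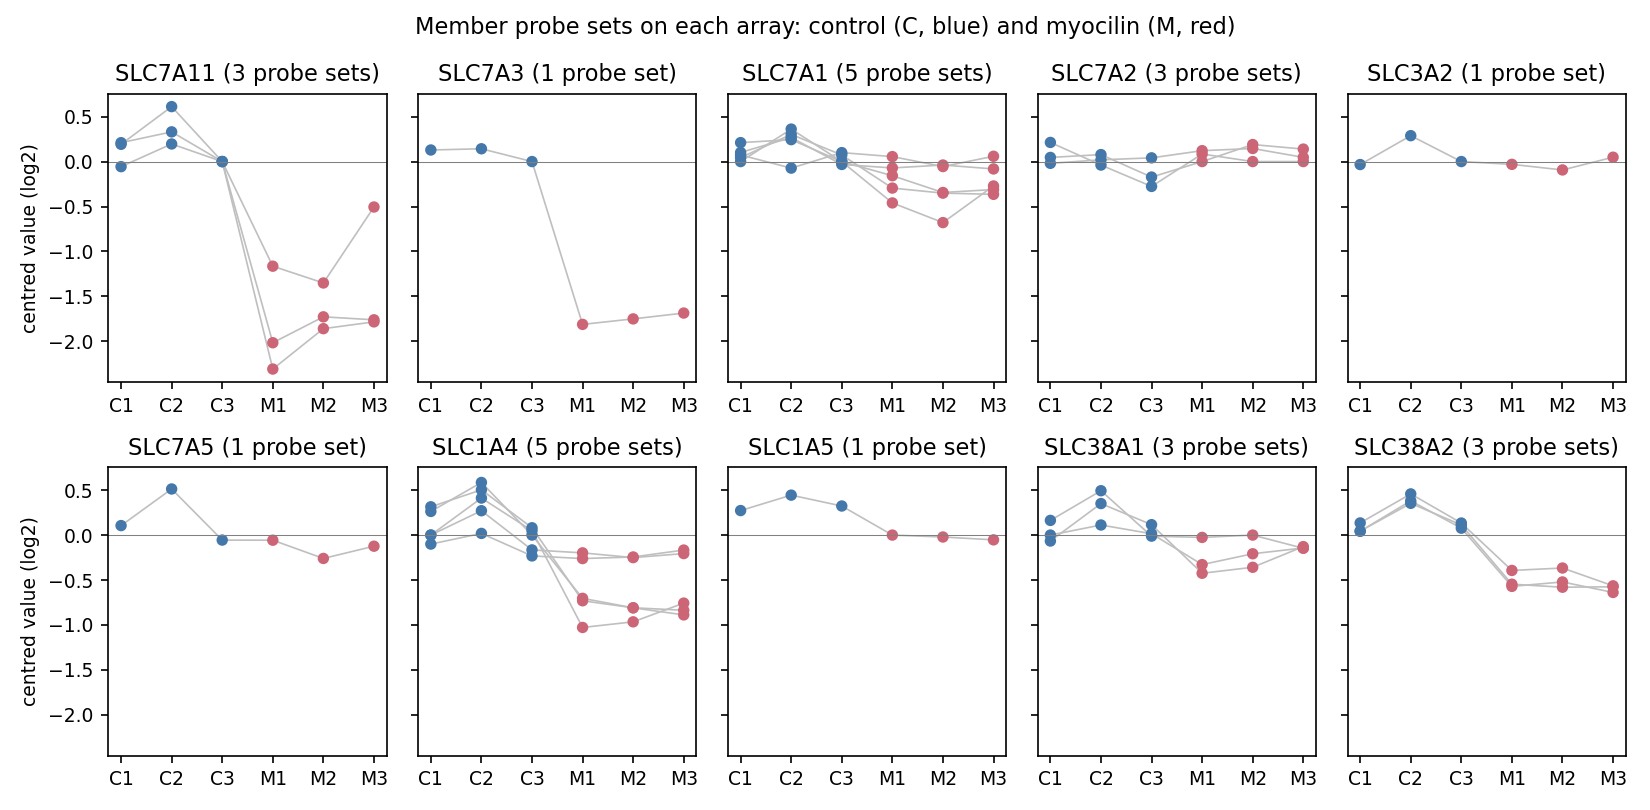
Centred log2 values of the 26 probe sets on the 6 arrays (C1 to C3 control, M1 to M3 myocilin), with a panel for each gene; each point is 1 array and grey lines join the values of 1 probe set. SLC7A3 and SLC7A11 separate the lines most widely, SLC7A2 and SLC3A2 overlap, and C2 is the highest control array in most panels.

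The cystine carrier gene SLC7A11 differed by -1.77 ± 0.13 (log2, SE), 3.42-fold lower in the myocilin line, with a 95% interval of -2.06 to -1.48. In the control line its gene value was 0.12, 0.38 and 0.00 by array, and in the myocilin line -1.83, -1.65 and -1.35. The lines did not overlap, and the gap between them was several times the standard deviations of 0.19 and 0.24. Its 3 probe sets agreed in direction but not in size. Probe set 217678_at read 0.21, 0.33 and 0.00 in control and -2.31, -1.86 and -1.78 in myocilin. Probe set 209921_at read 0.19, 0.61 and 0.00 against -2.02, -1.73 and -1.76. Probe set 207528_s_at read -0.06, 0.20 and 0.00 against -1.16, -1.35 and -0.51, so it differed less and varied most within the myocilin line, with myocilin array 3 nearest to the control arrays. The differences of the 3 were -2.16, -2.10 and -1.05. Under quantile normalization of the arrays the gene difference was -2.90, more negative than that of any of its 3 probe sets as deposited. In the same setting the difference of MYOC shrank from 7.99 to 5.09. The size of such extreme differences therefore depends on the scaling, and the reason was not tested.

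SLC7A3, the cationic carrier gene on chromosome X, had the most negative gene difference of the 10 and ranked 3 from the lowest of 18338 genes, just ahead of SLC7A11 at rank 4. Its only probe set, 230597_at, gave 0.13, 0.14 and 0.00 in control and -1.81, -1.75 and -1.69 in myocilin. All arrays of a line lay within a narrow band and the bands were far apart. The difference was -1.84 ± 0.06 (log2, SE), 3.58-fold, with a 95% interval of -1.98 to -1.70, and -2.30 under quantile normalization. The gene rests on this 1 probe set, so no second measurement of it exists in the table.

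The other cationic carrier genes differed less than SLC7A3. SLC7A1, the widely expressed arginine carrier of growing cells, read 0.09, 0.22 and 0.03 in control and -0.19, -0.29 and -0.19 in myocilin. The lines did not overlap, but the difference of -0.34 ± 0.07 (log2, SE) was small beside that of SLC7A3. Its 5 probe sets ranged from -0.62 for 206566_at to -0.01 for 215979_s_at, on which the lines overlapped. SLC7A2, a carrier known from liver and activated macrophages, read 0.08, 0.02 and -0.14 in control and 0.07, 0.11 and 0.06 in myocilin. Its arrays overlapped, its 3 probe sets differed by 0.06 to 0.13, and the interval of the gene difference, -0.06 to 0.24, spans 0. The intervals of SLC7A1 and SLC7A2 both lie wholly above that of SLC7A3, and the difference of -0.69 for the class mean is carried mostly by SLC7A3.

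Averaged as a class, the large neutral carrier and the shared heavy chain differed least, though SLC7A5 alone differed about as much as SLC7A1. SLC7A5 read 0.11, 0.51 and -0.06 in control and -0.06, -0.26 and -0.12 in myocilin through its only probe set, 201195_s_at. Control array 3 and myocilin array 1 nearly touched, and control array 2 stood well above the other two controls. The difference was -0.33 ± 0.13 (log2, SE), and unlike SLC7A1 the gene SLC7A5 was not past the threshold over all genes. Its difference was -0.17 without control array 2. Without control array 3 it was -0.46, and there the gene was past the threshold. The median value of the 50 nearest measured genes on chromosome 16, taken on each array, was 0.11 higher in the myocilin line, and with these neighbours subtracted the difference of SLC7A5 was -0.44. SLC3A2, the heavy chain, read -0.03, 0.29 and 0.00 against -0.03, -0.09 and 0.05, also through 1 probe set. Its lines overlapped, and the difference of -0.11 ± 0.09 became -0.01 without control array 2. The partner of SLC7A11 therefore had an interval of -0.31 to 0.09, which lies wholly above that of SLC7A11 itself.

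**Figure D2:**
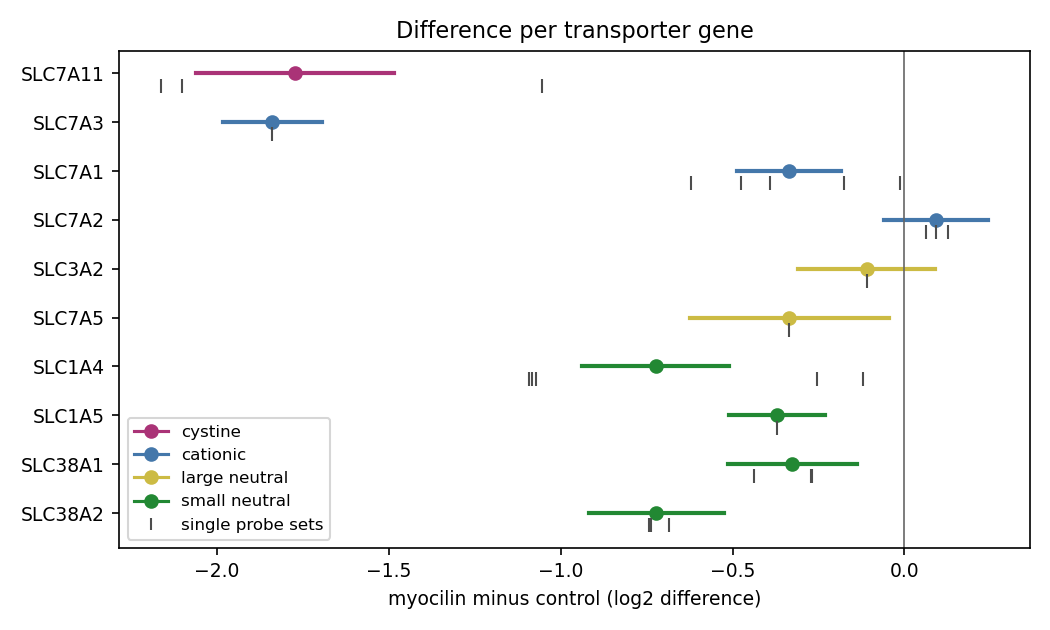
Log2 difference (myocilin minus control) of each gene, with its 95% interval from limma as a bar, coloured by transported class; short vertical marks are the single probe sets of the gene. The intervals of SLC7A11 and SLC7A3 lie below those of all other genes, and those of SLC7A2 and SLC3A2 span 0.

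All 4 small neutral carrier genes read lower in the myocilin line, by amounts between those of SLC7A3 and SLC3A2. SLC1A4 read 0.10, 0.36 and -0.05 in control and -0.58, -0.62 and -0.57 in myocilin, a difference of -0.72 ± 0.09 (log2, SE). Its probe sets differed by separate sizes: 209610_s_at, 212810_s_at and 212811_x_at differed by -1.08, -1.07 and -1.09, while 209611_s_at and 244377_at differed by -0.25 and -0.12. The last is its only probe set without an _s_ or _x_ suffix, which mark probes that may match related transcripts. SLC38A2 read 0.07, 0.40 and 0.11 in control and -0.50, -0.49 and -0.59 in myocilin, a difference of -0.72 ± 0.09. Its 3 probe sets agreed closely, at -0.74, -0.74 and -0.68, and all carry an _s_ or _x_ suffix.

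The related carriers differed less than these. SLC1A5, the glutamine exchanger, read 0.27, 0.44 and 0.32 in control and 0.00, -0.02 and -0.05 in myocilin, through 1 probe set. The lines stood clearly apart, at a difference of -0.37 ± 0.06 (log2, SE). SLC38A1 read 0.03, 0.32 and 0.04 in control and -0.26, -0.19 and -0.14 in myocilin, a difference of -0.33 ± 0.08, with probe sets at -0.44, -0.27 and -0.27. It was -0.23 without control array 2, and the gene was not past the threshold without that array or any 1 of the myocilin arrays. SLC38A1 and SLC38A2 are neighbours on chromosome 12 (GRCh38.p14, 46183063 to 46269043 and 46358188 to 46372773). The interval of SLC38A2, -0.92 to -0.53, lies below that of SLC38A1, -0.51 to -0.14, and the difference between the neighbours was not tested.

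Averaged over its genes on each array, every class had all myocilin arrays below all control arrays. That held for 2938 of all 18338 genes taken singly. The comparison chose the genes that were averaged, so nothing is read from this separation. The small neutral class read 0.12, 0.38 and 0.10 in control and -0.34, -0.33 and -0.34 in myocilin, a difference of -0.54. The cationic class read 0.10, 0.13 and -0.04 against -0.64, -0.64 and -0.61. The large neutral class, with the heavy chain, read 0.04, 0.40 and -0.03 against -0.04, -0.18 and -0.04, so its lines were separated by less than the spread of the control arrays. Its difference of -0.22 was the smallest of the classes and was -0.09 without control array 2. The cystine class is SLC7A11 alone.

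**Figure D3:**
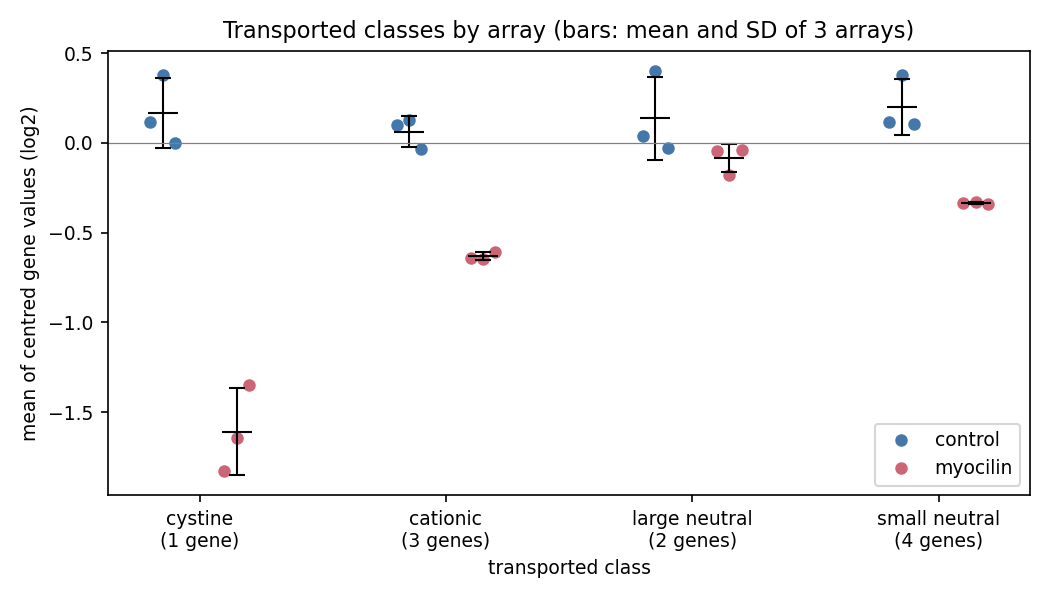
Mean centred log2 value of the genes of each transported class on each array, control in blue and myocilin in red, with the mean and SD of the 3 arrays of a line as black bars. The lines lie farthest apart for cystine, at means of 0.16 and -1.61, and closest for the large neutral class, at 0.14 and -0.09.

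Within the control line the carriers also varied together, a spread that enters the control mean of the comparison with which they were chosen. Control array 2 gave the highest of the 3 control values on 23 of the 26 probe sets, while it was the highest control array on 35.6% of all probe sets. Its value minus the mean of control arrays 1 and 3 had a median of 0.26 over the 26 probe sets, with a range of -0.16 to 0.52, and a median of 0.00 over all probe sets. This exceeded the 95th percentile of all probe sets for 13 of the 26. By gene it was largest for SLC7A5 at 0.49, SLC1A4 at 0.34, SLC7A11 at 0.32, SLC38A2 at 0.31 and SLC3A2 at 0.30. SLC7A3 at 0.08 and SLC7A2 at 0.05 hardly shared it, so the gene with the widest gap between the lines was among those that varied least within the control line. Control array 3 was the lowest control array on 15 of the 26 probe sets, against 30.5% of all. The myocilin arrays showed no such order, each being the highest on 7 to 10 probe sets.

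**Figure D4:**
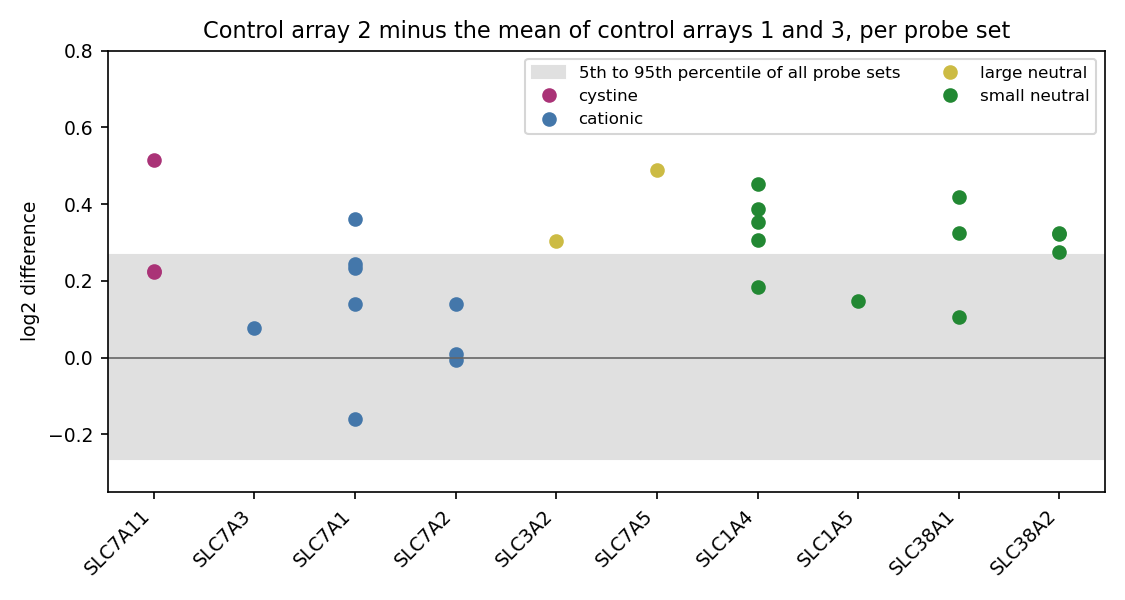
Value of control array 2 minus the mean of control arrays 1 and 3 (log2) for each of the 26 probe sets, by gene and coloured by transported class; the grey band spans the 5th to 95th percentile of all probe sets. The points of SLC1A4, SLC38A2 and SLC7A5 mostly lie above the band and those of SLC7A2 and SLC7A3 within it.

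Other carriers of amino acids were taken from 3 lists of 66 genes, also drawn up with earlier results of these data known. Measured values existed for 63 genes. Of these 4 rose, 3 fell and 56 did not pass the threshold, with a median difference of 0.03, where 8.28% of all genes rose and 7.35% fell. With a separate variance per gene 0 of the 63 were called. Of 30 measured carriers at the cell surface 2 rose and 2 fell. SLC6A9, the glycine carrier GLYT1, fell by 1.13 ± 0.18 (log2, SE), from 0.47, 1.00 and 0.17 in control to -0.58, -0.77 and -0.41 in myocilin, without overlap (limma adjusted p = 0.00377). Like 9 of the 10 genes it was highest, among control arrays, on control array 2, as were 33.6% of all genes. SLC43A1, a carrier of large neutral amino acids, fell by 0.30 ± 0.08 (adjusted p = 0.0294), below the control arrays on 3 of 3 myocilin arrays, and lost the call without control array 2 or 3 or myocilin array 1 or 2, at adjusted p = 0.0636 to 0.0974.

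The other listed light chains that share the SLC3A2 partner differed by -0.10 to 0.33. SLC7A6, an exchanger of arginine and glutamine, rose by 0.33 ± 0.06 (log2, SE, limma adjusted p = 0.00616), with 3 of 3 myocilin arrays above the control arrays. With its chromosomal neighbours on chromosome 16 subtracted it differed by 0.15 (adjusted p = 0.172). SLC7A7, SLC7A8 and SLC7A10 differed by -0.10, -0.04 and 0.06 and did not pass the threshold. SLC7A9, a light chain of the renal cystine carrier that pairs with SLC3A1 instead, rose by 0.36 ± 0.08 (adjusted p = 0.0159) on 3 of 3 arrays, and was at adjusted p = 0.0507 to 0.0552 without control array 2 or 3 or myocilin array 1 or 3.

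Of 18 carriers of lysosomes and vesicles 2 rose and 0 fell. SLC17A5, the lysosomal sialic acid exporter that also carries acidic amino acids, rose by 0.31 ± 0.06 (log2, SE, limma adjusted p = 0.00706), from -0.04, 0.06 and 0.09 to 0.33, 0.35 and 0.36. SLC17A7, a vesicular glutamate carrier, rose by 0.24 ± 0.07 (adjusted p = 0.0441) without overlap, and lost the call without control array 2 or 3 or any myocilin array, at adjusted p = 0.0583 to 0.128. Of 15 mitochondrial carriers 1 fell, the glycine carrier gene SLC25A38, at -0.22 ± 0.06 (adjusted p = 0.0408), with 3 of 3 myocilin arrays below the control arrays. It lost the call whichever of the 6 arrays was left out, at adjusted p = 0.0560 to 0.121, and with its chromosomal neighbours subtracted the difference was nearly the same, -0.21, at 0.0558. At an unadjusted p under 0.05 in limma 6 carriers of lysosomes and vesicles were higher and 1 lower. Of the mitochondrial carriers 1 was higher and 3 were lower at that cut, and of all 332 other SLC genes 41 were higher and 42 lower. At the adjusted threshold 21 of these 332 genes rose and 20 fell, with a median of 0.02. Without myocilin array 1 these counts were 11 and 10.

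**Figure D5:**
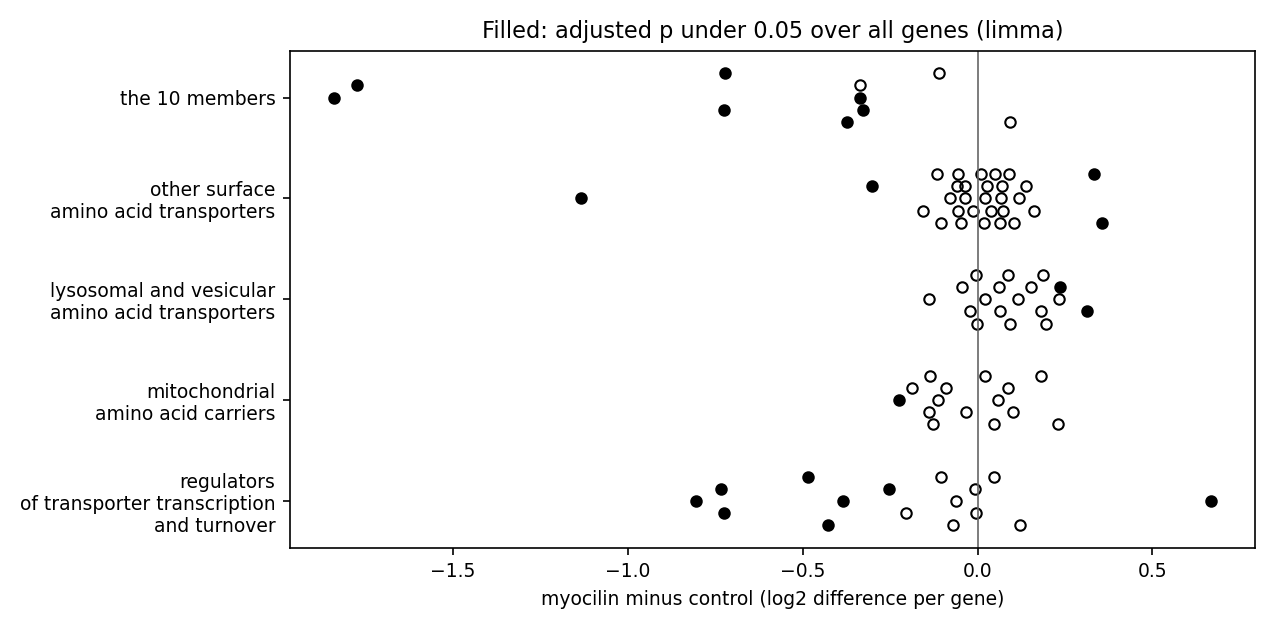
Log2 difference (myocilin minus control) of each gene of the 10 carriers and of 4 lists, filled where limma's adjusted p over all genes is under 0.05; vertical offsets only separate points. Of the 3 lists of other carriers 7 points are filled, with SLC6A9 far to the left at -1.13.

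Genes known to control these carriers were measured for 16 of the 17 listed, and 7 fell, 1 rose and 8 did not pass the threshold, with a median of -0.15, where 7.35% of all genes fell and 8.28% rose. With 1 array left out 5 to 7 fell and 1 rose, and with a separate variance per gene 0 were called. This list was drawn up with earlier results of these data known. Nothing is therefore read from these counts, and the adjusted p values of its genes are given as description. Partners and targets of ATF4 were among those that fell: TRIB3, a pseudokinase that restrains ATF4, by 0.80 ± 0.10 (log2, SE, limma adjusted p = 0.000921), and CEBPB, which pairs with ATF4, by 0.72 ± 0.12 (adjusted p = 0.00457). CEBPG, another C/EBP partner, read 0.07, 0.39 and 0.00 in control and -0.35, -0.36 and -0.27 in myocilin and fell by 0.49 ± 0.10. DDIT3, a stress-induced C/EBP factor, fell by 0.73 ± 0.16 (adjusted p = 0.0156), and was at adjusted p = 0.0582 without myocilin array 1 and 0.0574 without myocilin array 2. The lines did not overlap for any of these 4. The myocilin arrays lay entirely below for 8 of the 16 regulators and for 2938 of all 18338 genes. Control array 2 was the highest control array for each of the 4, for 11 of the 16 regulators and for 33.6% of all genes. ATF4 itself read 0.07, 0.23 and 0.08 against -0.14, -0.11 and 0.01, a difference of -0.21 that did not pass the threshold (adjusted p = 0.0726). It passed with array weights, at -0.22 (adjusted p = 0.0455), and with its chromosomal neighbours subtracted, at -0.30 (adjusted p = 0.0212), and over all alternatives its adjusted p was 0.0212 to 0.212. EIF2AK4, the kinase that senses uncharged tRNA, differed by -0.10 and ATF3 by 0.05, both with overlap.

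Regulators outside that response went in various directions. MYC, which is known to raise SLC7A5 and SLC1A5, rose by 0.67 ± 0.08 (log2, SE, limma adjusted p = 0.000836). Its 1 probe set went from -0.19, -0.29 and 0.00 to 0.52, 0.54 and 0.47. Both carriers read lower in the myocilin line, SLC7A5 not past the threshold, and a link to MYC was not tested. MYCN differed by -0.01. NFE2L2, the gene of NRF2 and an activator of SLC7A11, differed by -0.07 and its antagonist BACH1 by -0.003, neither past the threshold. KEAP1, which directs NRF2 to degradation, fell by 0.25 ± 0.07 (adjusted p = 0.0393), a call lost without control array 1 or 2 or any myocilin array, at adjusted p = 0.0682 to 0.120, and with its chromosomal neighbours subtracted the difference was nearly the same, -0.24, at 0.0581. The ubiquitin ligases NEDD4L and NEDD4, which act on membrane carriers, fell by 0.43 ± 0.06 (adjusted p = 0.00157) and 0.39 ± 0.07 (adjusted p = 0.00865), in each case with 3 of 3 myocilin arrays below the control arrays. The probe sets of NEDD4L ranged from -0.78 to -0.06, and the gene read -0.29 with its chromosomal neighbours subtracted. RNF5 at -0.06 and OTUB1 at 0.12, a ligase of SLC1A5 and SLC38A2 and a deubiquitinase of SLC7A11, did not pass the threshold.

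Over the 6 arrays SLC7A11 and SLC7A3 were each other's nearest gene, at a Euclidean distance of 0.42 in log2 units. The next nearest to SLC7A11 were CHRDL1 at 0.87, LHX8 at 0.88, RTN1 at 0.89 and KCNJ2 at 0.92. The same 4 genes followed for SLC7A3, at 0.91 for CHRDL1, 1.00 for RTN1, 1.01 for LHX8 and 1.17 for KCNJ2. Their values in the myocilin line averaged -1.28, -1.18, -1.19 and -1.12 for CHRDL1, LHX8, RTN1 and KCNJ2, against -1.61 for SLC7A11 and -1.75 for SLC7A3. The measure follows the gap between the lines, which few genes match in size, so it says only that few genes differed by as much in this direction. In these bulk RNA samples, fewer cells with a transcript and less of it per cell cannot be told apart.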

How the data were processed

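The deposited table holds values on a log scale, read as log2 from their range; per the labels and the file header, the base of the log and the steps from scan to table, array normalization included, were not given in the sources used here. By the values, the authors centred each array on a median of 0 and each probe set on a reference level. Probe sets of exactly 1 gene (37460 of 41751) were named from the platform annotation, with symbols updated through RefSeq (37416 matched), and averaged per gene. Lines were compared with limma 3.58.1 (lmFit, eBayes, two-sided, Benjamini-Hochberg over all probe sets or all genes, threshold 0.05) in R 4.3.3; the fit was tested on simulated data. Arrays per line (3) limit the precision. The members and lists were chosen with earlier results of these data known. Text names all members, all listed regulators, the called genes of the other transporter lists and the 5 nearest genes of SLC7A11 and SLC7A3. Alternatives were quantile normalization, array weights, eBayes with a trend and robust prior, omission of _x_at and _s_at probe sets, a Welch test, each array left out, the median of probe sets and, chosen after seeing the data, subtraction of the 50 nearest chromosomal neighbours. Promoter strand was checked by the position of TATA boxes.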

Additional observations from a re-analysis of the deposited data

How the results depend on the processing

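The direction of the difference held for each of the 10 carrier genes under every alternative that gave a value, from -2.90 to -1.66 for SLC7A11 and from -2.30 to -1.81 for SLC7A3. The Welch test and the trend and robust prior leave the difference itself unchanged, as does the median for genes of 1 probe set, so these cannot check its direction. SLC3A2 ranged from -0.17 to -0.01 and SLC1A4 from -0.89 to -0.12. The -0.12 came with the _x_at and _s_at probe sets dropped, where SLC1A4 was not past the threshold. No paired analysis was possible because the running numbers of the titles are not shared between the lines. Under quantile normalization the class differences were -0.85 for cationic, -2.90 for cystine and -0.80 over the 10 genes. Of these genes SLC7A11 and SLC7A3 moved most, and MYOC went from 7.99 to 5.09. With the _x_at and _s_at probe sets dropped, cystine read -2.13 and small neutral -0.28, where SLC38A2, SLC7A5 and SLC3A2 had no probe set left and the large neutral class no value. The same omission left 7 of 12 carrier probe sets lower, 1 of 22 surface carriers lower and 0 higher, 1 lysosomal or vesicular carrier higher, 0 mitochondrial carriers lower, 0 regulators higher, 10 other SLC genes higher and 935 genes higher in all. SLC6A9, SLC7A6, SLC7A9 and MYC had no probe set left, so their calls were not measurable there, while SLC17A7 (0.15, adjusted p = 0.211) and SLC25A38 (-0.22, adjusted p = 0.0613) were measured and not called. With the median of probe sets cystine read -2.01. The Welch test, which shares no variance between genes, left 1 carrier probe set and 1 carrier gene (SLC7A3) lower, 0 called in any of the 4 lists, 1 other SLC gene lower and 0 higher, and 19 lower and 25 higher of all genes. With chromosomal neighbours subtracted, chosen after seeing the data, 1 surface carrier was higher, 0 mitochondrial carriers were lower and 941 of all genes were higher. With 1 array left out, surface carriers gave 1 to 2 lower and 1 to 2 higher, lysosomal and vesicular carriers 1 to 2 higher, mitochondrial carriers 0 lower and 0 to 1 higher, regulators 5 to 7 lower, and other SLC genes 10 to 17 lower and 11 to 22 higher. All genes gave 780 to 1095 lower and 833 to 1125 higher, both fewest without myocilin array 1. The number of arrays and the unknown signal over background limit what can be resolved, and the cause of these changes was not tested.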
